A study of Mus musculus with 6 samples.

Results

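Dual-specificity phosphatases were followed in mIMCD3 cells, an immortalised mouse line from the inner medullary collecting duct, after 1 h with vehicle or with aldosterone. The set took in every probe set of the array whose only annotated gene symbol is Dusp followed by a number, which gave 13 of 12422 probe sets, for 9 genes. RefSeq lists 24 mouse genes with such symbols, and those without a probe set here are not analysed. Per the labels there were 3 replications, with a vehicle array and an aldosterone array in each, so each group held 3 arrays. The aldosterone dose is not given in the sources used here. The labels do not say how the cultures of a replication were kept, so the p-values cover no more than the variation among these arrays, which may be technical.

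Mitogen-activated protein kinases relay growth factor and stress signals when an upstream kinase phosphorylates a threonine and a tyrosine in their activation loop. Dual-specificity phosphatases of the MAP kinase phosphatase type remove both phosphates and so switch the kinase off, and several of them are made on demand, as negative feedback, within the hour after a stimulus. By role, the genes measured here fall into inducible nuclear enzymes (Dusp1, Dusp2), cytoplasmic enzymes that prefer ERK or act on several kinases (Dusp6, Dusp9), enzymes that prefer JNK and p38 (Dusp8, Dusp16) and atypical members without the kinase-binding domain (Dusp11, Dusp12, Dusp19). The label of MAP kinase phosphatases therefore fits only some of the set, since Dusp11 is known to act on RNA ends and Dusp12 is not an established MAP kinase phosphatase.

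The upstream sequences of 3 of these genes are shown because Dusp1 and Dusp6 were the members higher with aldosterone in all 3 replications, and Dusp8 shares an element with Dusp1. Each is the 250 bases before the RefSeq transcription start in GRCm38.p6, read 5′ to 3′ on the gene's strand, and capitals mark the cyclic AMP response element TGACGTCA and its half-site TGACG. They lie at chr17:26508473-26508722 on the minus strand, chr10:99262981-99263230 on the plus strand and chr7:142095285-142095534 on the minus strand.
Dusp1: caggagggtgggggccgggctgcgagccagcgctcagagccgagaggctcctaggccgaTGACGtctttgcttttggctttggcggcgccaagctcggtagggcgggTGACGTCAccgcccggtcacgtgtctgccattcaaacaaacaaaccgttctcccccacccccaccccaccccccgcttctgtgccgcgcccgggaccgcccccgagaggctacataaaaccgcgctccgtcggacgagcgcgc
Dusp6: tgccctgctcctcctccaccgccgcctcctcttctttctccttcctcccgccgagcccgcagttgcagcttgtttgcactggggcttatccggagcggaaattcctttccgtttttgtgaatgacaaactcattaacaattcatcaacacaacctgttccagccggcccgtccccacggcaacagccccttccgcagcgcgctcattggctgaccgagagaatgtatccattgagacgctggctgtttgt
Dusp8: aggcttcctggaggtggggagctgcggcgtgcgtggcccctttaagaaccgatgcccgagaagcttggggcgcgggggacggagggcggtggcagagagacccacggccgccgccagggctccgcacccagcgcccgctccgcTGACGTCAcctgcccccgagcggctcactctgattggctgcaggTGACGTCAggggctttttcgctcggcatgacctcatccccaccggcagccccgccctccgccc

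Of the 9 genes, 7 had a window in the RefSeq table, and Dusp9 and Dusp19 did not. Searched on both strands, TGACGTCA was found in 2 of the 7, Dusp1 and Dusp8, against 1.55% of the 32851 windows of this length. Its start lay 143 bases before the transcription start in Dusp1, and 107 and 63 bases before it in Dusp8. The half-site TGACG, which lies within the full element, was found in 4 of the 7 and in 17.8% of all windows; a further copy in Dusp1 began 191 bases before the start. The E-box CACGTG was found in Dusp1 and Dusp2 and in 6.02% of all windows, and CCAAT in Dusp6, Dusp8 and Dusp16 and in 33.8%. The glucocorticoid response element half-site AGAACA (16.1% of windows), the AP-1 element TGAGTCA (4.46%) and the Ets core CCGGAA (12%) were found in 0 of the 7. These are matches of letters in short windows.

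Values are intensities that were brought to a common trimmed mean, because the aldosterone array of replication 3 was deposited on a scale lower than that of the other 5 arrays. Log2 values are log2(intensity + 53.0), and the 7453 probe sets whose log2 values averaged 8.87 or more were tested; 8 of the 13 Dusp probe sets, 1 for each gene except Dusp9, were among them. As a check of the treatment, Sgk1, the aldosterone-induced kinase, and the clock gene Per1 had log2 differences of 1.63 and 1.26, and for both the aldosterone arrays lay above all vehicle arrays. Neither passed by limma, on group alone (adjusted p = 0.242) or with a term for the replication (adjusted p = 0.0509 for Sgk1 and 0.0722 for Per1). They are the 2 genes of smallest p among 9 listed corticosteroid targets; of the 7 tested, 6 were higher by sign, with a median of 0.87, while Fkbp5 had -0.0049 and Klf9 0.16, and Tsc22d3, too dim to be tested, had -0.60. Of 13 epithelial and collecting duct markers on the array, 10 were tested, among them the keratins Krt8, Krt18 and Krt19, while the vasopressin-regulated water channel Aqp2 and the receptor Avpr2 were too dim. Of the markers of other cell types, 3 of 8 for fibroblasts, 1 of 7 for endothelium and 2 of 6 for leukocytes were bright enough to be tested. The summed intensity of each marker list overlapped between the groups, for example 75210 to 101305 with vehicle and 71623 to 97150 with aldosterone for the epithelial list, and 5599 to 8250 and 5381 to 6610 for the leukocyte list. Single markers did differ by sign within replications: both tested leukocyte genes were lower with aldosterone in all 3, Cd68 by -0.41 without overlap of the groups and Cd14 by -0.18, as were Krt18 (-0.18) and Krt8 (-0.14). Of all tested probe sets, 11.5% were lower in all 3 replications and 2.27% were lower without overlap of the groups. For Cd68 the differences were -0.06, -1.02 and -0.14 in replications 1, 2 and 3. A Cd68 probe set too dim to be tested went the other way, with 0.82 and higher values in all 3. The endothelial gene Eng had -0.73 and the fibroblast genes Pdgfra and Col1a1 had -0.38 and 0.19, with mixed signs between replications. By limma 0 of these markers were called, as were 0.00% of all probe sets, and the part of the markers in the Dusp values was not tested.

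**Figure D1:**
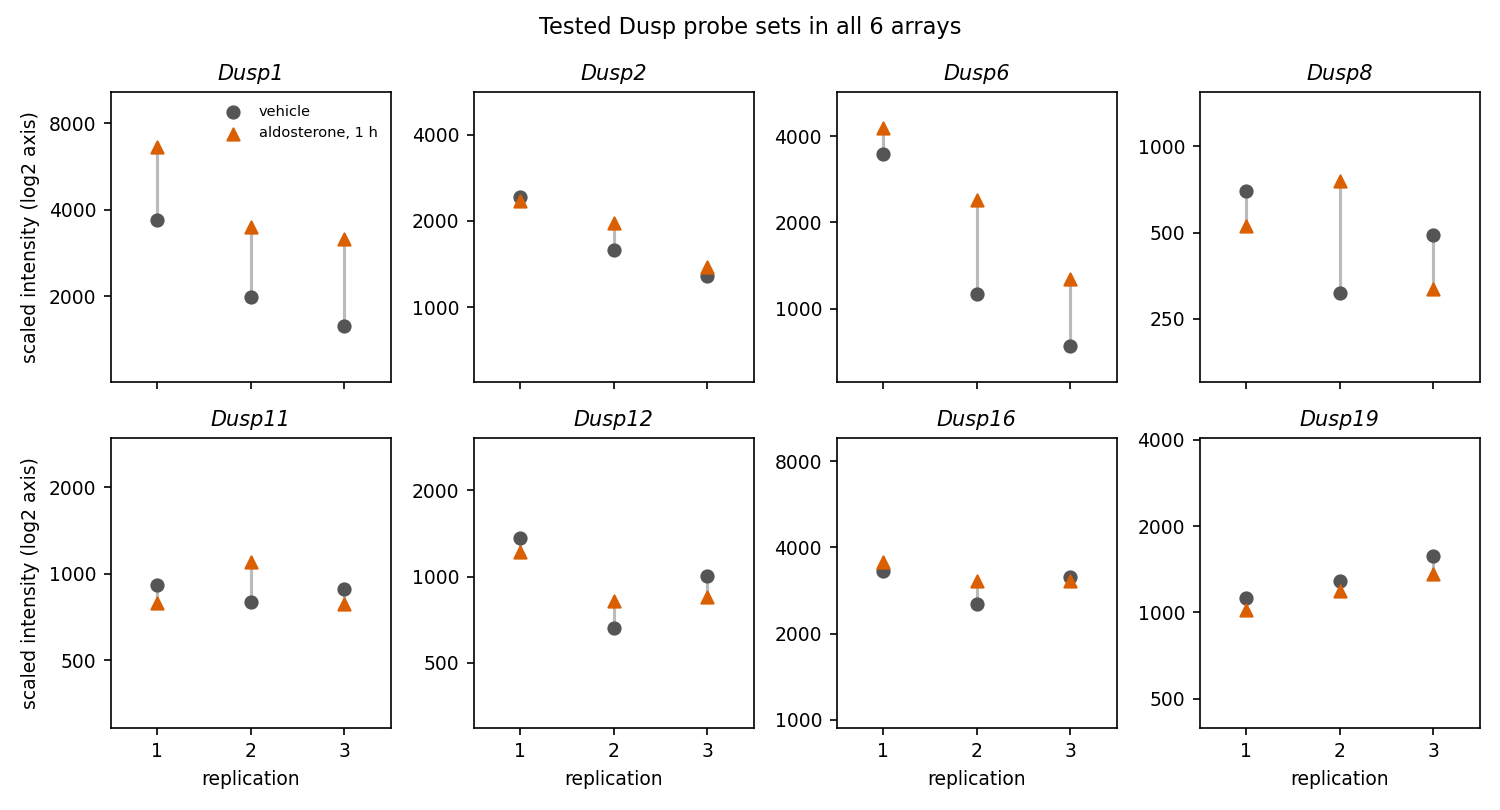
Scaled intensity (log2 axis) of the 8 tested Dusp probe sets in each of the 6 arrays, with circles for vehicle, triangles for aldosterone and a line joining the 2 arrays of a replication. Each panel spans the same ratio. Dusp1 and Dusp6 had the triangle above the circle in all 3 replications, and both were highest in replication 1.

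Dusp1, the nuclear phosphatase that acts on p38, JNK and ERK and is a known glucocorticoid target, was higher with aldosterone in every replication. Its intensity was 3686, 1984 and 1566 with vehicle in replications 1, 2 and 3, and 6610, 3474 and 3162 with aldosterone. The groups overlapped, because the vehicle array of replication 1 read above the aldosterone arrays of replications 2 and 3. Within the replications the log2 differences were 0.83, 0.79 and 0.99, while the vehicle levels they started from ranged from 1566 to 3686. Their mean of 0.87 is 1.83-fold, with a standard error of 0.348 and a 95% interval of 0.09 to 1.66 on group alone. With the replicate block, a term that compares the arrays within each replication, the standard error was 0.118 and the interval 0.60 to 1.14. Over all probe sets Dusp1 did not pass, by limma, at an adjusted p of 0.9995 on group alone and 0.0722 with the block. In bulk RNA, the share of cells that carry a transcript and its amount per cell cannot be told apart.

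The call on Dusp1 depended on the probe sets, the arrays and the intensity trend of the blocked fit. Of 6 blocked fits chosen after the data were seen, 3 did not call it: its adjusted p was 0.721 without the intensity trend, 0.867 without replication 1 and 0.0585 without replication 3. In the other 3 it passed: at an adjusted p of 0.0456 among the 4969 probe sets above the 60th percentile of brightness, at 0.0412 with all 12422 probe sets, and at 0.00442 without replication 2, where 1 residual degree of freedom was left before moderation. Those fits called 5 (0.101%), 6 (0.0483%) and 20 (0.268%) of all probe sets tested in them, and Dusp1 was the only Dusp gene among these calls. Over the 24 alternatives its adjusted p ranged from 0.00442 to 1.00 and its log2 difference from 0.54 to 1.22. Many of these could not have turned its direction. A changed filter or trend, or the block with all arrays, leaves the log2 difference as it is. Leaving out a whole replication cannot reverse a difference that was positive in all 3.

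Dusp2, the other inducible nuclear enzyme, had no common direction over the replications. It read 2418, 1580 and 1282 on the vehicle arrays and 2355, 1973 and 1380 on the aldosterone arrays. The log2 differences of -0.04, 0.31 and 0.10 averaged 0.13 (SE 0.273, 95% interval -0.49 to 0.74), within the spread between arrays. The direction turned to -0.07 without the vehicle array of replication 3 and to -0.04 without the aldosterone array of replication 1. The difference between the responses of Dusp1 and Dusp2 was not tested.

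Dusp6, the cytoplasmic phosphatase that binds and inactivates ERK and is itself induced by ERK signalling, was higher with aldosterone in all 3 replications. Its bright probe set read 3453, 1122 and 744 on the vehicle arrays and 4265, 2394 and 1274 on the aldosterone arrays. The groups overlapped widely, since vehicle in replication 1 exceeded aldosterone in replications 2 and 3. The log2 differences were 0.30, 1.06 and 0.74, the smallest in replication 1, where the vehicle level was highest. The mean of 0.70, or 1.62-fold, had a standard error of 0.550 on group alone and 0.176 with the replicate block, and the 95% intervals were -0.54 to 1.93 and 0.30 to 1.10. Dusp6 did not pass by limma, with an adjusted p of 0.9995 on group alone and 0.998 with the block. The mean difference was 0.25 without the vehicle array of replication 3 and 1.32 without that of replication 1.

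A second Dusp6 probe set was too dim to be tested and did not follow the bright one. It read 25.3, 133 and 54.7 on the vehicle arrays and 27.8, 88.5 and 220 on the aldosterone arrays. Its highest value was on the rescaled aldosterone array of replication 3, whose deposited values have 1 decimal and so move in steps of 2.42 after scaling. Across the 6 arrays the log2 values of both probe sets had a Pearson r of -0.58, a description over arrays that share replications. Dusp9, the cytoplasmic phosphatase known from placenta and insulin-responsive tissue, had a pair of probe sets and both were too dim. They spanned 158 to 384 and 160 to 600 over the 6 arrays, with mean differences of 0.11 and -0.38 and signs that varied between replications.

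Of the enzymes that prefer JNK and p38, Dusp16 was steady across the arrays. Its bright probe set read 3304, 2548 and 3152 on the vehicle arrays and 3544, 3043 and 3063 on the aldosterone arrays, for a log2 difference of 0.10 (SE 0.164, 95% interval -0.26 to 0.47). Its difference from the responses of Dusp1 and Dusp6 was not tested. The dimmer Dusp16 probe set, of a kind whose probes can match related transcripts, spanned 107 to 315 and had a difference of -0.35. Dusp8 varied without a common direction: 697, 308 and 490 on the vehicle arrays and 527, 757 and 317 on the aldosterone arrays, with log2 differences of -0.37, 1.16 and -0.55. Its mean of 0.08 (SE 0.397, 95% interval -0.81 to 0.97 on group alone) turned to -0.46 without replication 2. That interval contains the 0.87 of Dusp1, and the difference between the responses of Dusp8 and Dusp1 was not tested. The dimmer Dusp8 probe set spanned 290 to 511, with a difference of -0.28. The part of the upstream element that Dusp8 shares with Dusp1 in the values of either gene was not tested.

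The atypical members showed small differences. Dusp11, the RNA phosphatase, read 911, 798 and 888 on the vehicle arrays and 793, 1100 and 783 on the aldosterone arrays, for a log2 difference of 0.03 (SE 0.230). Dusp12, a zinc-binding member, read 1367, 660 and 1005 on the vehicle arrays and 1214, 824 and 846 on the aldosterone arrays, for a difference of -0.03 (SE 0.294). Both were higher with aldosterone in replication 2 alone, as was Dusp8. Dusp19, known as a scaffold of the JNK pathway, read 1120, 1283 and 1576 on the vehicle arrays and 1019, 1186 and 1366 on the aldosterone arrays. It was the only tested member lower in all 3 replications, by -0.13, -0.11 and -0.20, and its mean of -0.15 with a 95% interval of -0.62 to 0.33 was within the spread between arrays.

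**Figure D2:**
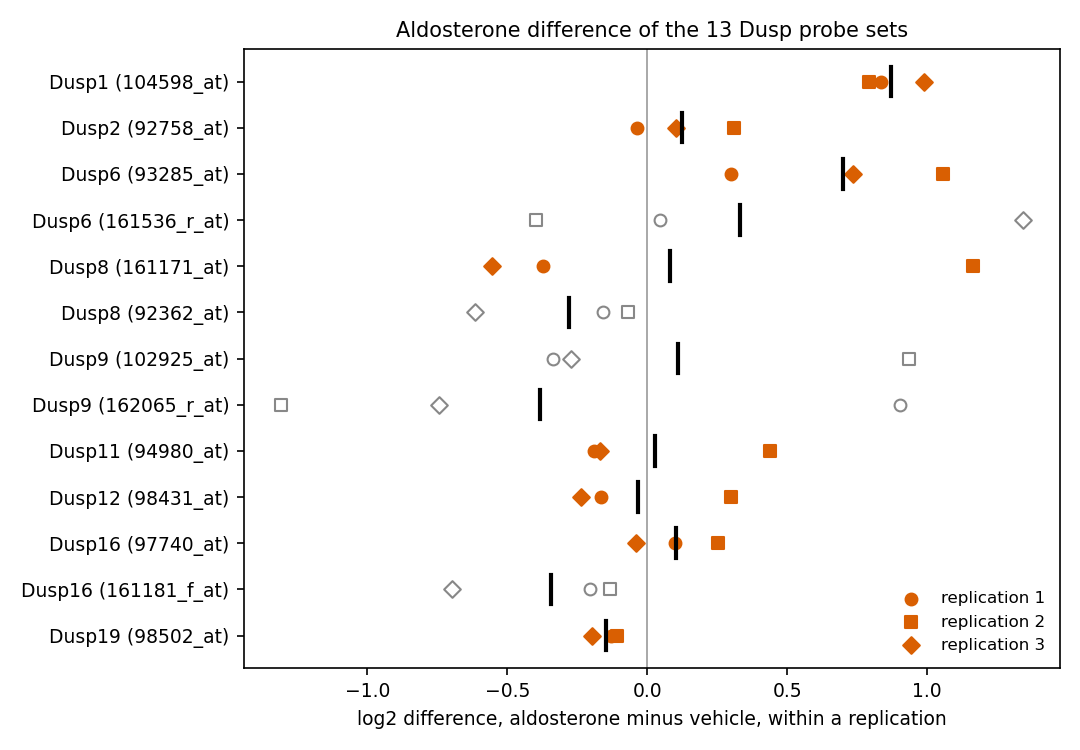
Log2 difference, aldosterone minus vehicle, of all 13 Dusp probe sets in replications 1 (circles), 2 (squares) and 3 (diamonds), with the mean as a black bar; open grey symbols are probe sets too dim to be tested. Dusp1 lay between 0.79 and 0.99 in every replication, and the open symbols of a probe set were often far apart.

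Over the set, 0 of 8 tested Dusp probe sets were called at an adjusted p under 0.05 on group alone, where 0.00% of all 7453 were called, and 0 with the replicate block, again beside 0.00%. At an unadjusted p under 0.05 it was 1, Dusp1, on group alone (0.966% of all), and 2, Dusp1 and Dusp6, with the block (3.35% of all). By sign 6 were higher and 2 lower, with a median log2 difference of 0.09, beside 3721 higher and 3732 lower of all and a median of -0.0003. In all 3 replications 2 were higher, where 10.5% of all probe sets were, and 1 was lower, where 11.5% were. In 0 of the 8 did the groups separate without overlap, as 1.91% of all probe sets did upward and 2.27% downward. These 8 passed a filter on brightness; of the 5 that did not, 2 had a higher and 3 a lower mean with aldosterone.

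The levels of Dusp6 and Dusp1 differed between the replications. Dusp6 was highest in replication 1 and lowest in replication 3 under both treatments, with replication means 3.78-fold apart after the treatment term (limma's F test, adjusted p = 0.00403). Dusp1 had the same order under both treatments and was 2.19-fold apart (adjusted p = 0.00620). Thus 2 of the 8 were called, and both were highest in replication 1; of all probe sets 7.82% were called and 3.05% were called with their highest mean in replication 1. For Dusp6 the distance between replications exceeded the 1.62-fold difference with aldosterone, and for Dusp1 both were of similar size. These are unlike measures, since the distance runs from the highest to the lowest of 3 replication means. Such a range tends to be wider than a difference between 2 group means. Dusp2 also had its highest reading in replication 1 and its lowest in replication 3 under both treatments, 1.76-fold apart (adjusted p = 0.0628).

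These calls were sensitive to the fit. Dusp1 was no longer called without the intensity trend (adjusted p = 0.108), without the treatment term (0.129), or without the vehicle (0.0868) or aldosterone (0.0781) array of replication 1. Dusp6 was no longer called without the intensity trend (0.0980) or the vehicle array of replication 1 (0.0734). Dusp2 was called with the filter at the 60th percentile (0.0455), without the treatment term (0.0427) and without the vehicle (0.0166) or aldosterone (0.0147) array of replication 2. The range of the adjusted p over all alternatives was 5.00e-05 to 0.129 for Dusp1, 1.19e-06 to 0.0980 for Dusp6 and 0.0147 to 0.248 for Dusp2.

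The other 5 tested genes were not called. Their replication means lay 1.70-fold apart for Dusp12 (adjusted p = 0.178), 1.47-fold for Dusp8 (0.675), 1.36-fold for Dusp19 (0.353), 1.22-fold for Dusp16 (0.387) and 1.12-fold for Dusp11 (0.895). Dusp19 ran the other way from Dusp1 and Dusp6, with its lowest mean in replication 1 and its highest in replication 3. Over the 6 arrays the log2 values of Dusp6 had a Pearson r of 0.97 with Dusp2, 0.92 with Dusp1 and -0.96 with Dusp19, as a description of 6 points that fall into 3 replications.

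The immediate early genes, whose transcription these same kinases drive within minutes of a stimulus, in part differed between replications. With aldosterone none was called on group alone or with the block, where 0.00% of all 7453 probe sets were called. Of 22 tested genes of that list, 12 differed between replications, and each of the 12 was highest in replication 1. Of all 5640 tested genes 7.73% differed, and 159 genes differed with their highest mean in replication 1. With aldosterone 12 were higher and 10 lower by sign, 0 were called, and the median log2 difference was 0.02. The 2 of smallest p were Fosb, at 0.28 (SE 0.209), and Plk3, at 0.24 (SE 0.243), each higher in 2 of 3 replications. Klf6 had 0.35 and Nr4a1 0.22, both higher in all 3 and both among the 12, and Myc, also among them, had 0.21. Fos, Egr1 and Jun, like Nr4a1 and Myc named after their values were seen, had replication means 3.28-fold, 3.76-fold and 3.29-fold apart and log2 differences with aldosterone of -0.08, -0.06 and -0.20. Fos read 2167, 639 and 509 on the vehicle arrays and 1530, 735 and 529 on the aldosterone arrays, so that in replication 1 it was lower with aldosterone while Dusp1 was higher. The epithelial genes Cldn4, Cldn7 and Krt7, also named afterwards, were the only 3 of the 10 tested epithelial markers called between replications. They differed by 4.81-fold, 3.09-fold and 2.39-fold, with their lowest means in replication 3. The keratins Krt8 and Krt18 were among those not called (limma's F test, adjusted p = 0.0767 and 0.254). The part of cell state or composition in the differences between replications was not tested.

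**Figure D3:**
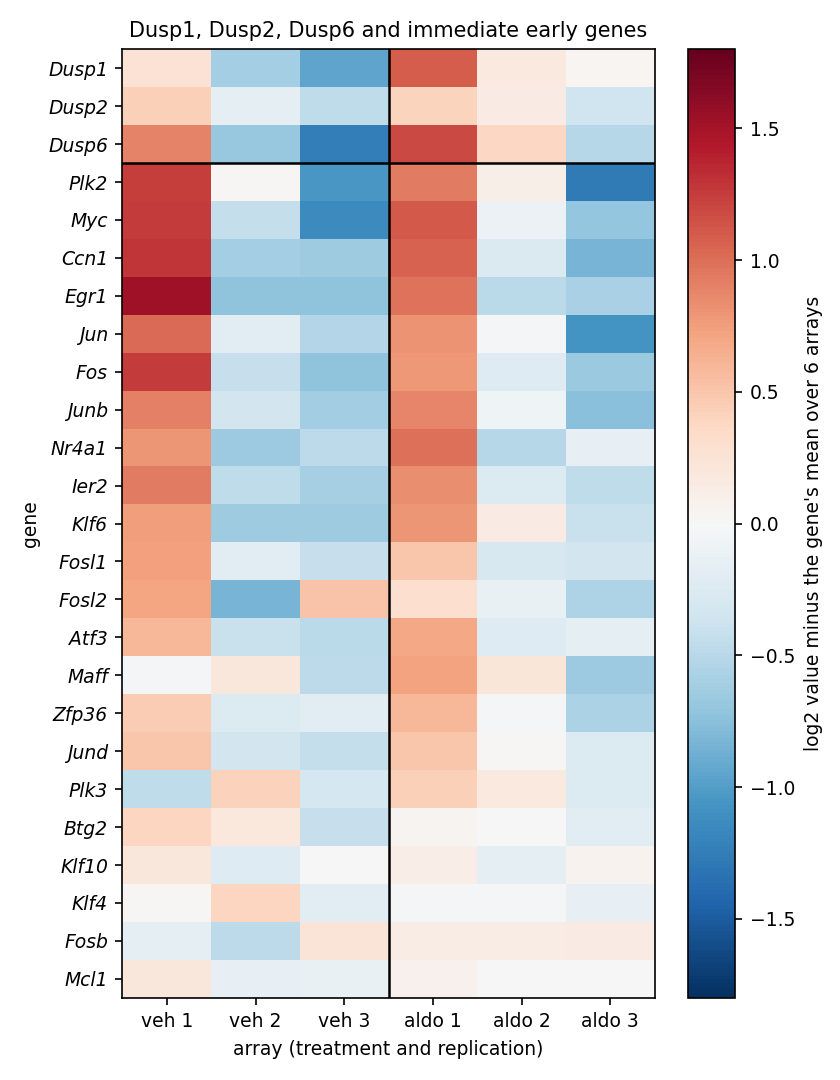
Log2 value minus the gene's mean over the 6 arrays for Dusp1, Dusp2 and Dusp6 (above the line) and the 22 tested immediate early genes, ordered by their range between replications; columns are vehicle (veh) and aldosterone (aldo) arrays of replications 1 to 3. Replication 1 is high for most of these genes under both treatments, and Dusp1 and Dusp6 are in addition higher in each aldosterone column than in the vehicle column of the same replication.

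**Figure D4:**
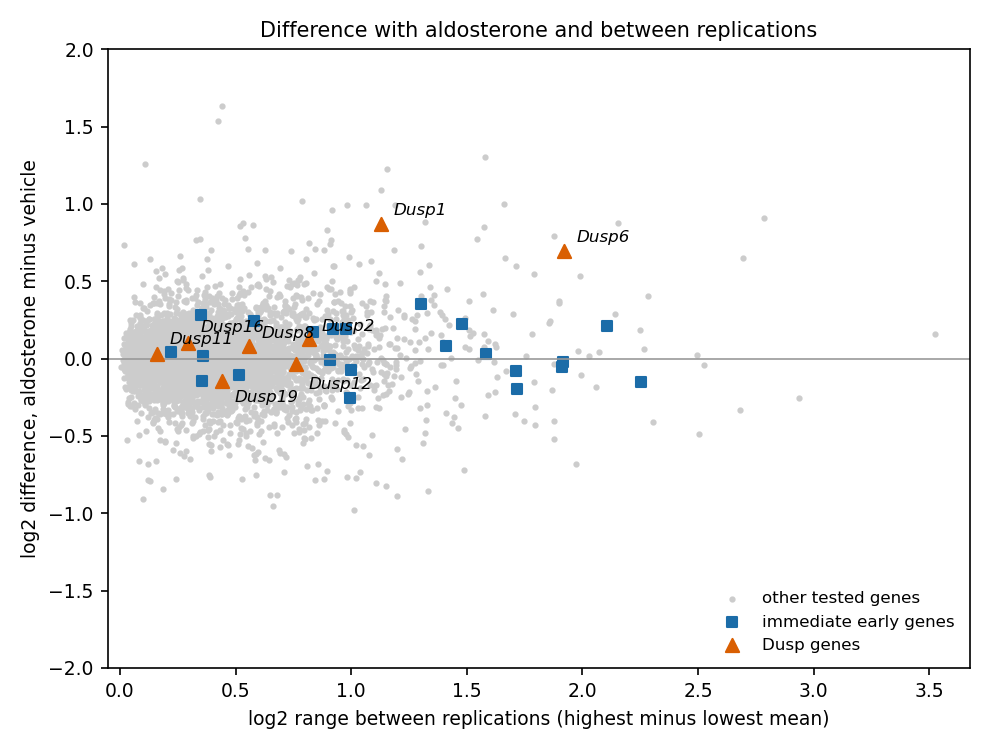
Log2 difference with aldosterone against the log2 range between replication means for the 5640 tested genes, 1 point each at the brightest probe set, with Dusp genes as triangles and immediate early genes as squares. Dusp1 (1.13, 0.87) and Dusp6 (1.92, 0.70) stand to the right and above, and the 12 immediate early genes called between replications have treatment differences between -0.20 (Jun) and 0.35 (Klf6).

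The genes whose pattern over the 6 arrays was most like that of Dusp6 were Ccn2, the connective tissue growth factor (Pearson r = 0.994), the stress sensor Gadd45g (0.983), the actin-binding protein gene Tagln (0.979), the activin antagonist Fst (0.976) and the transcription factor Klf6 (0.975). Each had its highest mean in replication 1, from 1.28-fold above the lowest for Tagln to 6.89-fold for Ccn2. Tagln was not called between replications (limma's F test, adjusted p = 0.729). These genes were chosen by likeness to Dusp6, so the shared peak and their higher values with aldosterone were largely set by the choice. Their log2 differences with aldosterone were 0.91 for Ccn2, 0.41 for Gadd45g, 0.17 for Tagln, 0.36 for Fst and 0.35 for Klf6. For Dusp1 they were Ctnnbip1 (0.981), the receptor kinase gene Kit (0.980), the transcription factor gene Gata4 (0.968), St3gal4 (0.964) and the neurotrophin gene Bdnf (0.963). Their log2 differences were 0.20, 0.53, 0.64, 0.50 and 0.48, smaller than that of Dusp1. They were likewise chosen by likeness, so their direction was largely set by the choice. High values are common with 6 arrays: of 5639 genes, 93 exceeded an r of 0.9 with Dusp6 and 42 with Dusp1.

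The transcripts of the kinases on which these phosphatases act showed no called difference with aldosterone. Of 14 listed MAP kinases 7 were tested, and by sign 4 were higher and 3 lower (median log2 difference 0.01). Mapk7, which encodes the large kinase ERK5, read 1496, 867 and 964 on the vehicle arrays and 1656, 1656 and 1837 on the aldosterone arrays, without overlap. The log2 difference of 0.64 (SE 0.230) did not pass (limma, adjusted p = 0.9995 on group alone and 0.998 with the block). Mapk12, a p38 isoform, had -0.09. Of the MAP kinase kinases, 6 of 7 were tested, 3 higher and 3 lower. Map2k1, which activates ERK, read 1768, 2785 and 2360 on the vehicle arrays and 2574, 3351 and 3077 on the aldosterone arrays, for a difference of 0.39 (SE 0.202). Map2k5, which activates ERK5, had -0.25 and was lower in all 3 replications. Neither passed, and Map2k1, like Dusp1, overlapped between the groups.

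Among the kinases further up, 8 of 15 listed were tested and 4 were higher and 4 lower, with 0.85 (SE 0.545) for Map3k12 and -0.27 for Araf. Of the kinases that MAP kinases activate, 4 of 10 were tested and all 4 were higher by sign, by a median of 0.11, with 0.13 for Mapkapk2, the main p38 effector, and 0.38 for Mknk1. Of 19 other feedback inhibitors and phosphatases 11 were tested, 7 higher and 4 lower with a median of 0.05; the Raf inhibitor Pebp1 had 0.23 and the catalytic subunit Ppp2ca -0.24. The ERK feedback inhibitor Spry4, named after its values were seen, read 1224, 1406 and 1136 on the vehicle arrays and 1181, 1250 and 1165 on the aldosterone arrays. Of 14 transcription factors that MAP kinases phosphorylate 9 were tested, 5 higher and 4 lower; the stress factor Ddit3 had 0.63 (SE 0.366), and the ERK-responsive Ets factor Etv4 had 0.25 and 0.48 in its 2 probe sets. By limma 0 genes of these lists were called on group alone or with the block, where 0.00% of all probe sets were called. Between replications, 0 of the 7 MAP kinases, 0 of the 6 MAP kinase kinases and 0 of the 9 transcription factors were called, as were 1 of 8 kinases further up, 1 of 4 activated kinases and 3 of 11 inhibitors and phosphatases. The share over all tested genes was 7.73%, and with so few genes a list these counts set no list apart from it.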

How the data were processed

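RNA from 6 mIMCD3 samples was measured on single-colour arrays, and their number limits the precision. Each probe set has 1 deposited intensity, on a linear scale; scanning and summarisation software is not given in the sources used here. Aldosterone replication 3 had a 2% trimmed mean of 86.5 as deposited, and the other 5 arrays had 2488 to 2493, so each array was scaled to 2090. Values became log2(value + 53.0), the 10th percentile being the pseudocount, and probe sets at or above the 40th percentile of mean log2 value were tested. Symbols came from the array's annotation and, by Entrez identifier, RefSeq of GRCm38.p6, which changed 0; 10833 probe sets had 1 symbol, 396 several and 1193 none. A gene listed with others was taken at its brightest probe set.

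Treatments were set against each other using limma 3.58.1 (R 4.3.3; lmFit, then eBayes with an intensity trend, two-sided) with Benjamini-Hochberg adjustment over all tested probe sets and a threshold of 0.05. The fit was checked for the size and sign of simulated effects much larger than those of the Dusp genes. That check does not bear on the power for differences of the size seen here. Replications were compared by limma's F test with treatment as a term. The replication number was a block in an alternative. The labels give each number a vehicle and an aldosterone array, and deviations of these arrays correlated at 0.377, 0.387 and 0.471. The members, gene lists and tests were chosen with earlier results of these data known. All Dusp probe sets were named, with 2 genes of smallest p per other list, Sgk1, Per1, and the 5 genes most correlated with Dusp1 and with Dusp6. Other genes, the further corticosteroid targets included, were named after their values were seen. Alternatives changed the scaling, pseudocount, filter, trend, block and arrays used.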

Additional observations from a re-analysis of the deposited data

How the results depend on the processing

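The number of probe sets called with aldosterone, 0, stayed at 0 in 19 of 24 alternatives. It was 1 without the vehicle array of replication 2. Blocked fits chosen after seeing the data called 5 (replicate block, 60th-percentile filter), 6 (replicate block, no filter), and 20 and 9 (replicate block, without replication 2 or 3); the cause was not tested. With the replicate block alone it was 0. The number differing between replications, 583, was 2 without the intensity trend, and 44, 100, 943 and 1292 without the vehicle or aldosterone array of replication 1 and the vehicle or aldosterone array of replication 2. Dusp1 (0.54 to 1.22) and Dusp6 (0.25 to 1.32) were higher and Dusp19 (-0.26 to -0.02) lower in every alternative run for them. Many alternatives could not have turned these signs. Filter, trend and the block with all arrays leave the log2 difference unchanged. Leaving out a whole replication cannot reverse a sign shared by all 3. The other tested Dusp genes changed sign. With arrays left out, Dusp8 ranged from -0.46 to 0.40, Dusp2 from -0.071 to 0.37, Dusp11 from -0.18 to 0.13, Dusp16 from -0.0081 to 0.18 and Dusp12 from -0.29 to 0.20. With the replicate block, Dusp8 had -0.46 and Dusp11 -0.18 without replication 2, and Dusp12 had 0.032 and 0.068 without replication 1 or 3. Dusp12, at -0.03 as reported, had 0.0026 after quantile normalization and -0.0072 when scaled to a common median. The cause of these sign changes was not tested. Dim probe sets and 3 arrays per group set the limits.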
